A study of Mus musculus with 3 samples.

Results

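Axon guidance genes encode the secreted and membrane-bound cues, and their receptors, that steer growing axons, migrating neural crest cells and vessel sprouts. The set described here was chosen by gene symbol alone: every gene of the table named as a semaphorin, plexin, neuropilin, Slit, Robo, netrin, netrin-G, Unc5 receptor, Dcc, ephrin or Eph receptor. It held 70 of the 52550 genes, 36 ligands and 34 receptors. The symbol rule used no measured value, but it was set with earlier results of these data known.

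Semaphorins signal through plexins, with neuropilins as co-receptors for most secreted, class 3 members. Slits signal through Robos and netrins through Dcc and the Unc5 receptors. Ephrins are membrane-bound, so Eph receptors report contact with a neighbouring cell. In sympathetic ganglia, Sema3a with Nrp1 and Sema3f with Nrp2 are textbook cues for the neurons and their axons, and in adult nerve the same families are known from glia, fibroblasts and endothelium.

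RNA was measured in cells sorted as live and positive for yellow fluorescent protein from the superior cervical ganglion, a sympathetic ganglion of the neck, of male mice 10 weeks old. The genotype is given as LepRCRE::Ai32: Cre recombinase under control of the leptin receptor gene switches on Ai32, a fluorescent channelrhodopsin reporter, so a cell carries colour if it, or a cell it descends from, has used that gene. By their labels the 3 libraries replicate 1 group biologically, and there is no unsorted or reporter-negative sample, so levels could be compared with a fixed level but not with other cells. The labels do not state how many cells or mice make up a library. The values are TPM, a transcript level scaled for gene length and to the same total in each library.

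The libraries held 8239050, 8038895 and 7721999 reads on genes, and 1 read on a gene of 1 kb was worth between 0.391 and 0.418 TPM. Lepr had 363, 32.1 and 54.0 TPM in replicates 1, 2 and 3. Perineurial markers, those of the barrier cells named in the series title, summed to between 537 and 817 TPM, led by Cldn1 and Sfrp5. Of these 16 markers, 4 lay above 1 TPM and Krt19 was without a read. Markers of satellite glia and Schwann cells summed to between 28008 and 33067 TPM (12 of 14 above 1 TPM), led by Fabp7 and Apoe, and fibroblast markers to between 5004 and 7001 TPM (9 of 12), led by Dcn and Lum. Endothelial markers summed to between 327 and 470.0 TPM (3 of 12), mural markers to between 128 and 465 TPM (4 of 12; Tagln and Cnn1 without a read), neuronal markers to between 125 and 339 TPM (2 of 17; Npy without a read), macrophage markers to between 4.30 and 128 TPM (0 of 14; Aif1 without a read) and lymphocyte markers to between 0.874 and 1.59 TPM (0 of 12; 6 without a read). Markers of several cell types were thus read in the 3 libraries. Whether separate cell types or the same cells made them was not tested. In a pool of sorted cells, fewer cells of a type and less RNA per cell cannot be told apart. Which cells made a given guidance transcript was not tested.

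Semaphorins and a single ephrin carried most of the guidance signal. The 20 semaphorins summed to 315, 394 and 557 TPM in replicates 1, 2 and 3, against 711, 812 and 989 TPM for all 70 genes. The 5 ephrin-As summed to 113, 101 and 168 TPM. By the mean of the libraries the 9 plexins came next, at 119, 97.6 and 73.4 TPM, and then the 2 neuropilins, at 43.6, 72.5 and 67.5 TPM. Single libraries departed from that order: in replicate 1 the plexins exceeded the ephrin-As and the ephrin-Bs (62.9 TPM) exceeded the neuropilins, and in replicate 2 the EphA receptors (76.6 TPM) exceeded the neuropilins. The 3 Slits stayed at 0.184, 2.02 and 0.623 TPM, and the 5 classical netrin receptors at 0.247, 0.579 and 1.08 TPM. Ligands outweighed receptors in every library, at 495, 531 and 748 TPM against 216, 281 and 241 TPM. That excess rested largely on Sema3c and Efna5. Sema3c made up 40.6%, 26.4% and 39.7% of the ligand total, and Efna5 added 112, 99.8 and 165 TPM.

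**Figure D1:**
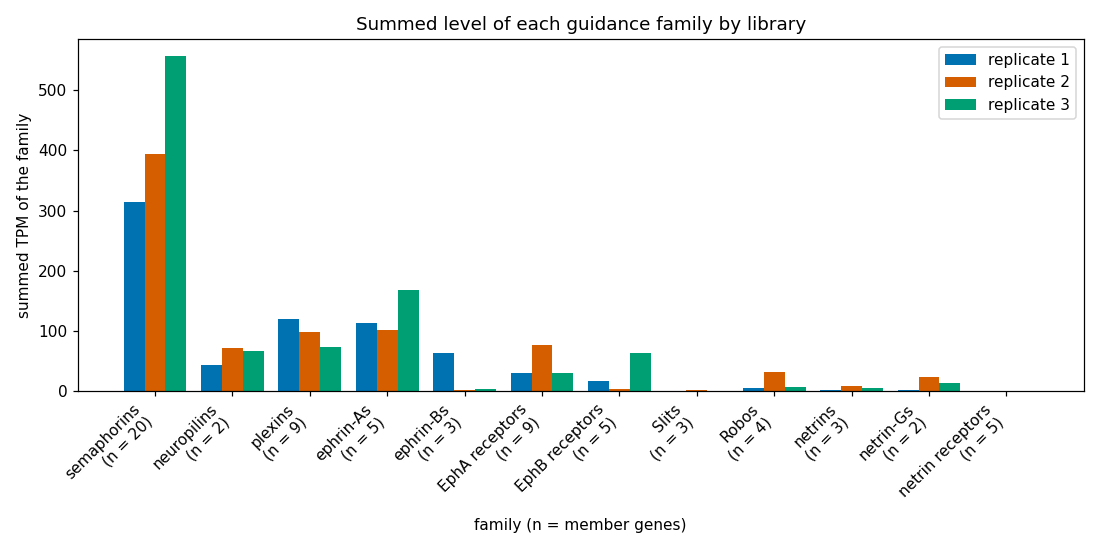
Summed TPM (vertical axis, linear from 0) of each guidance family (horizontal axis, with its number of genes) in replicates 1, 2 and 3 (bars). Semaphorins are highest in each library, at 315, 394 and 557 TPM, while the Slits and netrin receptors lie near 0 on this axis.

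Of the 70 genes, 65 had at least 1 read in at least 1 library. For each, limma's moderated test asked whether the mean log2(TPM + 1) of the 3 libraries differed from that of a gene at 1 TPM, with Benjamini-Hochberg adjustment over all 27402 genes with a read. The test placed 11 guidance genes above 1 TPM and 13 below, with 41 passing neither way. Those counts are 16.9% and 20.0% of the 65, against 16.3% above and 14.1% below over all genes tested and 23.9% and 15.4% over protein-coding genes. The share above was thus near that of all genes and under that of protein-coding genes. The median level of the 65, all protein-coding, was 1.21 in log2(TPM + 1), against 0.89 over all genes tested. Of those 27402 genes 17142 were protein-coding, and the median was not taken over these alone. No gene can lie more than 1 below the tested level on this scale. With replicate 1 or replicate 2 left out limma placed 0 genes of the whole table above 1 TPM, although 14 and 9 guidance genes had an unadjusted p under 0.05. Of the 11, limma kept Sema3c and Efna5 when replicate 3 was left out.

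**Figure D2:**
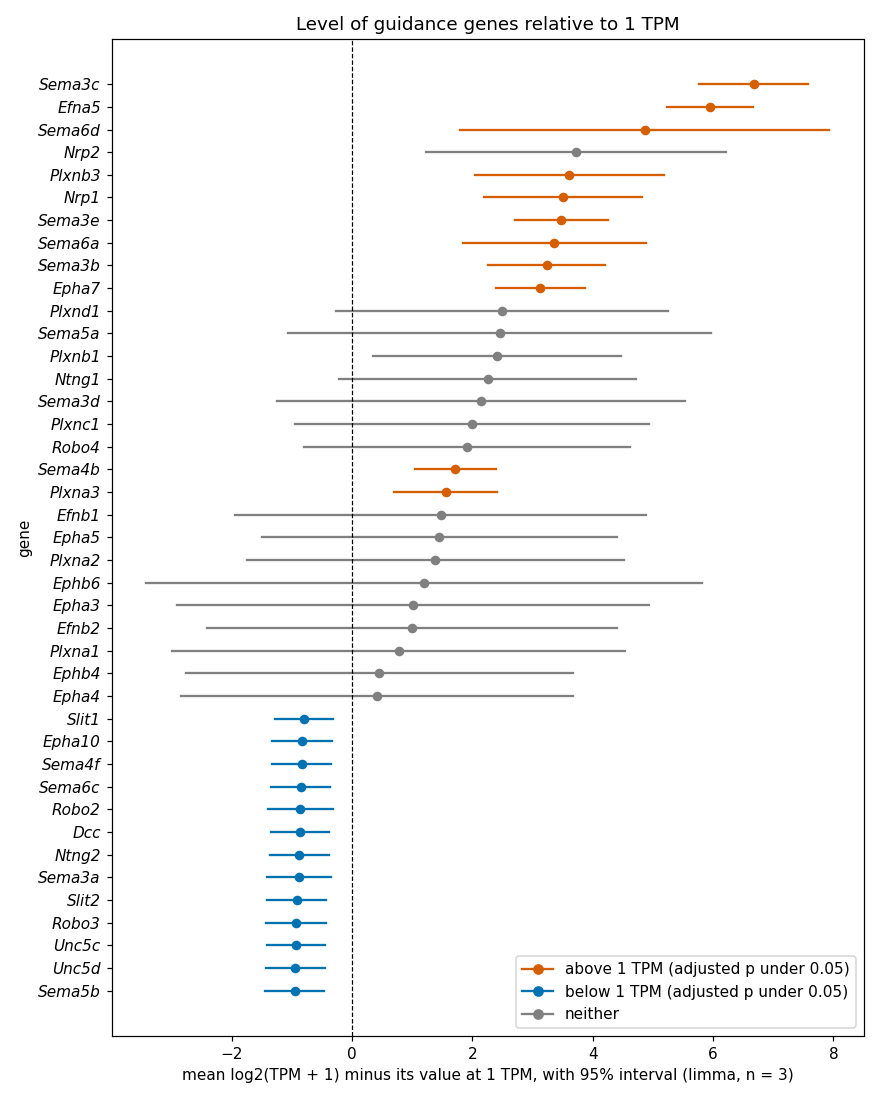
Mean log2(TPM + 1) minus its value at 1 TPM (horizontal axis) with limma's 95% interval (n = 3) for guidance genes (vertical axis) above or below 1 TPM or with a mean of at least 5 TPM. The 11 genes above 1 TPM, led by Sema3c at 6.67 and Efna5 at 5.95, and the 13 below are coloured, and grey genes passed neither way.

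By the mean of the libraries Sema3c was the most abundant guidance gene, although Sema6d exceeded it in replicate 2 (152 against 139.9 TPM). Sema3c encodes a secreted class 3 semaphorin that binds both neuropilins and is known from heart outflow tract and vessel development. It lies on chromosome 5 (17574281 to 17730268 of GRCm38, forward strand) and had 201, 139.9 and 297 TPM from 3665, 2556 and 5072 reads. All 3 libraries were high. The mean was 213 ± 79.1 TPM (SD, n = 3), a difference in log2(TPM + 1) of 6.67 ± 0.29 (SE) from a gene at 1 TPM (limma, adjusted p = 0.00396). Sema3c alone took 28.2%, 17.2% and 30.0% of the TPM of all 70 genes.

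Efna5 (chromosome 17, 62604184 to 62881317, reverse strand), a GPI-anchored ephrin that repels axons bearing EphA receptors, came next by the mean of the libraries. In replicate 2 Efna5 too was under Sema6d. It had 112, 99.8 and 165 TPM from 1155, 1030 and 1590 reads, a mean of 126 ± 34.5 TPM (SD, n = 3), 5.95 ± 0.23 (SE) above the level of 1 TPM (limma, adjusted p = 0.00362). The ranges of Sema3c and Efna5 overlap, but within each library Sema3c was higher, by 0.72 ± 0.21 (SD, n = 3) in log2(TPM + 1). Efna5 made up 99.3%, 98.8% and 98.0% of the ephrin-A total.

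The table of RefSeq promoters (GRCm38.p6) held 60 of the 70 genes. The 250 bases before the RefSeq start site are shown for Efna5 and for Plxnb3, a plexin also above 1 TPM, because they lie near either end of the CpG content seen among the genes above 1 TPM, and capitals mark each CG. RefSeq starts need not equal the gene starts given here, which are GENCODE M21's: the Plxnb3 window runs 13 bases into the first M21 exon, and that of Sema3c lies within an M21 exon and is not shown.

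Efna5 (chr17:62881318-62881567, reverse strand): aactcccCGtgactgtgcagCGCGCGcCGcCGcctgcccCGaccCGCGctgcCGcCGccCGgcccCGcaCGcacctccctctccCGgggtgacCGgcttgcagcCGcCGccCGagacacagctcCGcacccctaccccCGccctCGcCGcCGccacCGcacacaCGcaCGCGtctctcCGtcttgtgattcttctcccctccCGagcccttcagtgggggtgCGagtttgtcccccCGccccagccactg
Plxnb3 (chrX:73756853-73757102, forward strand): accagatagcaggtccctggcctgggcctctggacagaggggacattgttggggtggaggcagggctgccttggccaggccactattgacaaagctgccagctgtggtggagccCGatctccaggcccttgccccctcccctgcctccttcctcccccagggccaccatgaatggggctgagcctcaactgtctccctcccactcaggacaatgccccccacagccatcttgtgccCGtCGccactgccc

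The windows of Efna5 and Plxnb3 hold 32 and 3 CG. Where a gene has several windows, the 1 with most CG was counted. The 9 genes above 1 TPM with a listed promoter ranged from 3 to 39 CG with a median of 12, the 10 below from 2 to 25 with a median of 14.5. Over all protein-coding genes the medians were 18 for the 3189 above 1 TPM and 6 for the 1963 below. The guidance genes on either side of 1 TPM thus spanned overlapping ranges of CG content, which is a description and not a test.

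Among the other secreted semaphorins, Sema3e and Sema3b were steady. Sema3e, which binds Plxnd1 without a neuropilin, had 30.3, 18.7 and 17.0 TPM, a mean of 22.0 ± 7.21 (SD, n = 3; limma, adjusted p = 0.00845). Sema3b had 15.2, 29.1 and 12.7 TPM, a mean of 19.0 ± 8.86 (SD, n = 3; limma, adjusted p = 0.0157). In both genes all 3 libraries were above 10 TPM.

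Sema3d, a class 3 member that binds Nrp1, was not steady. It had 16.5 and 28.1 TPM in replicates 1 and 3 but 0.330 TPM from 7 reads in replicate 2 (limma, adjusted p = 0.223). Sema3g had 0.194, 0.366 and 4.81 TPM, with 52 of its 58 reads in replicate 3. The best known sympathetic repellents were scarce: Sema3a had 8, 1 and 0 reads and lay below 1 TPM (mean 0.0919 TPM; limma, adjusted p = 0.0485). Sema3f had no read in any library, where 3 reads would be 0.226, 0.226 and 0.241 TPM.

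The transmembrane class 6 semaphorins were the other large group. Sema6d, a ligand of Plxna1, had 9.42, 152 and 123 TPM from 254, 4099 and 3114 reads, so replicate 1 was low and replicates 2 and 3 were high. The average, 94.8 ± 75.3 TPM (SD, n = 3), lay 4.86 ± 1.00 (SE) over a gene at 1 TPM in log2(TPM + 1) (limma, adjusted p = 0.0493). That call was lost at a level of 0.5 TPM (0.0675), at 5 TPM (0.0636) and without mitochondrially encoded genes (0.0666). Sema6a, a ligand of Plxna2 and Plxna4, had 34.5, 8.20 and 25.7 TPM, lowest in replicate 2, with a mean of 22.8 ± 13.4 (SD, n = 3; limma, adjusted p = 0.0407), a call lost at a level of 5 TPM (0.0515). Sema6b had 0, 9 and 5 reads. Sema6c had 2, 1 and 1 reads and was below 1 TPM (limma, adjusted p = 0.0485).

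Of the class 4 semaphorins, membrane proteins that bind plexin Bs in several cases, Sema4b was the even member. It had 4.59, 7.56 and 4.90 TPM, a mean of 5.69 ± 1.63 (SD, n = 3; limma, adjusted p = 0.0291). That call was lost with low genes left out (0.105), with a mean-variance trend (0.291) and at a level of 5 TPM (0.665). Sema4d, the ligand of Plxnb1, had 0.561, 11.8 and 1.05 TPM and Sema4a had 1.18, 5.08 and 0.560 TPM, both highest in replicate 2. Sema4f, with 1, 1 and 2 reads, was below 1 TPM (limma, adjusted p = 0.0485). Sema4c and Sema4g had no read, where 3 reads would be between 0.241 and 0.273 TPM. Sema5a, a ligand of Plxnb3, had 0.588, 18.4 and 41.6 TPM from 16, 509 and 1076 reads, again low in replicate 1 (limma, adjusted p = 0.190). Its relative Sema5b had 1 read in all, below 1 TPM (limma, adjusted p = 0.0485), and the GPI-anchored Sema7a had 4, 9 and 0 reads.

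**Figure D3:**
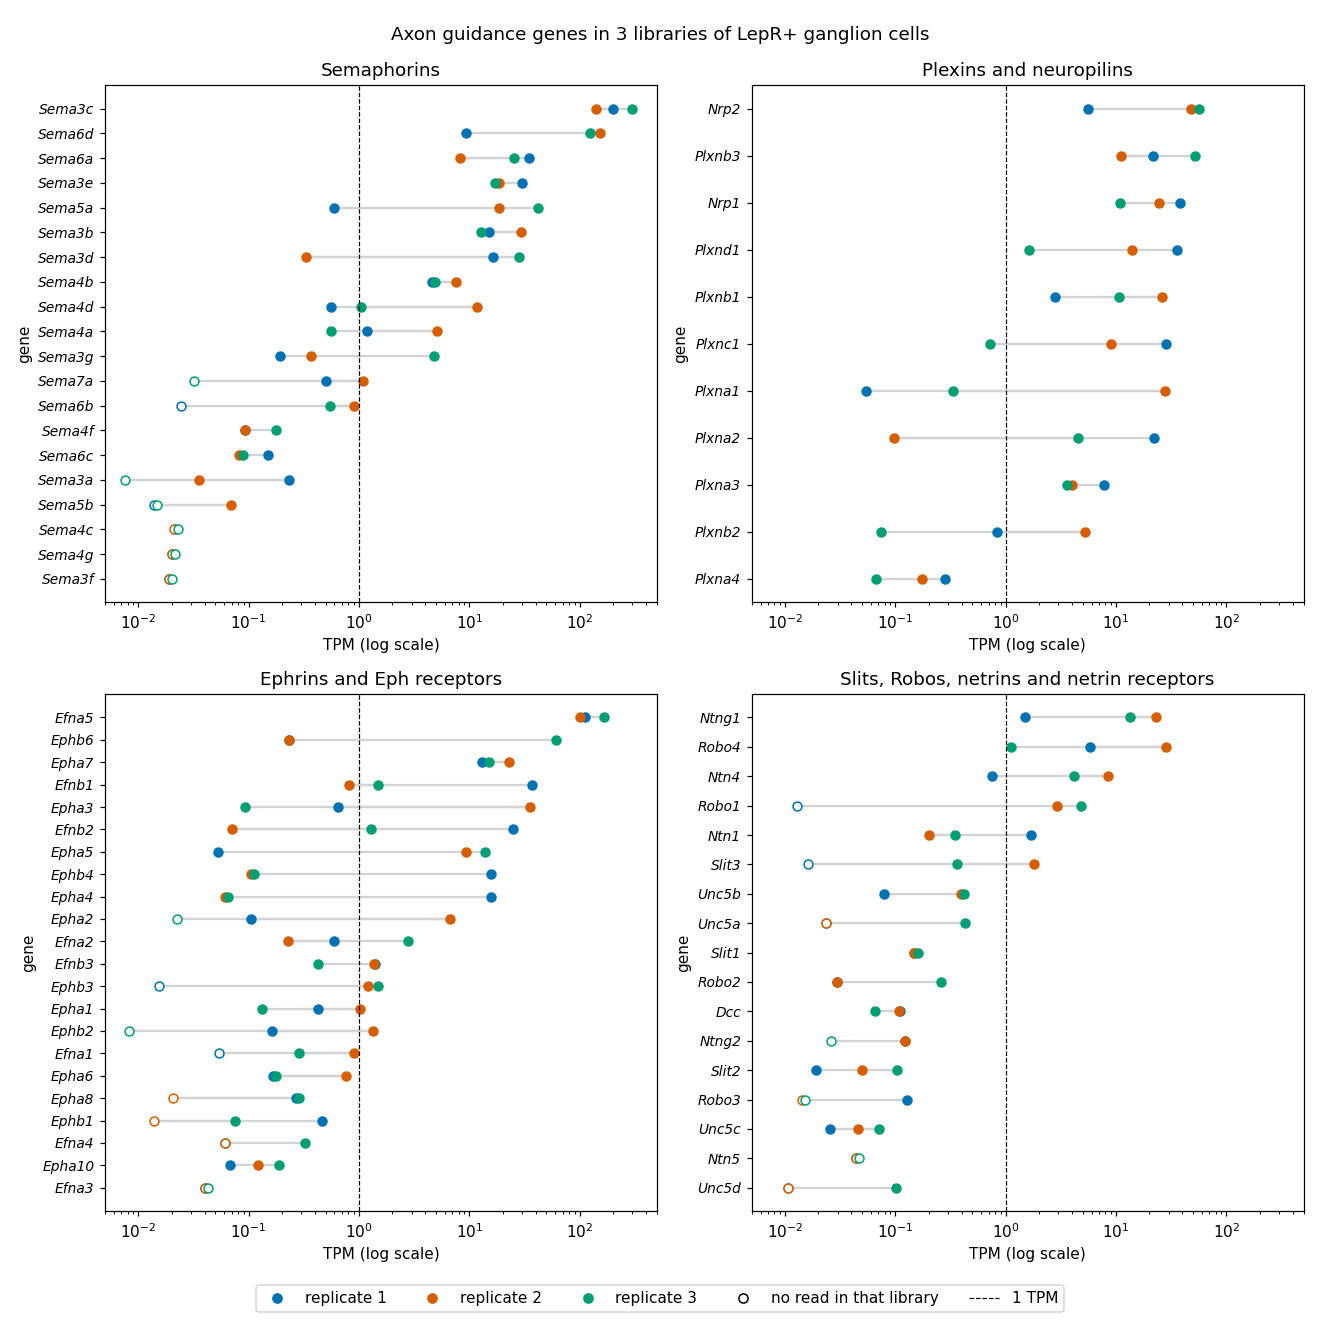
TPM on a log axis (horizontal) of all 70 guidance genes (vertical), in 4 panels by family, with 1 point for each replicate and the grey line spanning the 3. Open points are libraries without a read, whose value holds only the 0.25 read added to every gene, and the dashed line is 1 TPM; points of Sema3c and Efna5 lie close together, while those of Ephb6, Epha4 and Plxna1 are far apart.

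Both neuropilins were read in every library, in opposite order. Nrp1, the co-receptor for Sema3a and for VEGF (chromosome 8, 128358604 to 128503363, forward strand), had 38.0, 24.5 and 10.9 TPM from 950, 614 and 255 reads. Nrp2, the co-receptor for Sema3f (chromosome 1, 62703285 to 62818695, forward strand), had 5.59, 48.0 and 56.6 TPM from 169, 1453 and 1603 reads. Nrp1 was thus the higher of the pair in replicate 1 and Nrp2 in replicates 2 and 3. Nrp1, averaging 24.5 ± 13.6 TPM (SD, n = 3), was above 1 TPM (limma, adjusted p = 0.0259), while Nrp2, at 36.7 ± 27.3 TPM, missed the threshold (limma, adjusted p = 0.0520) and passed it with a pseudocount of 0.1 TPM (adjusted p = 0.0226), with low genes left out (0.0221) or with a mean-variance trend (0.000402), the range over the alternatives other than a level of 5 TPM being 0.000402 to 0.260.

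Of the 9 plexins, Plxnb3 and Plxna3 were above 1 TPM. Plxnb3, a receptor of Sema5a, had 21.8, 11.1 and 51.8 TPM, a mean of 28.2 ± 21.1 (SD, n = 3; limma, adjusted p = 0.0375). Plxna3, which serves Sema3f with Nrp2, had 7.76, 4.03 and 3.62 TPM, a mean of 5.14 ± 2.28 (SD, n = 3; limma, adjusted p = 0.0485); that call was lost with a mean-variance trend (adjusted p = 0.353), with a pseudocount of 0.1 TPM (0.0567) and with low genes left out (0.144), over a range of 0.0257 to 0.353 without the level of 5 TPM. Neither gene had a library under 3 TPM.

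The remaining plexins were high in some libraries and low in others. Plxnd1, the Sema3e receptor of endothelium, had 35.4, 14.0 and 1.62 TPM (limma, adjusted p = 0.121). Plxnc1, the Sema7a receptor, had 28.2, 9.09 and 0.713 TPM (adjusted p = 0.200 in limma). Plxnb1, the Sema4d receptor, had 2.78, 26.4 and 10.6 TPM (adjusted p = 0.0757 in limma), which became 0.0448 with a pseudocount of 0.1 TPM and ranged up to 0.343 under the alternatives other than a level of 5 TPM. The first pair was highest in replicate 1 and Plxnb1 in replicate 2.

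Among the plexin As, Plxna2 was highest in replicates 1 and 3 and Plxna1 in replicate 2. Plxna1 had 1, 638 and 7 reads, or 0.054, 27.5 and 0.335 TPM. Plxna2 had 974, 4 and 187 reads, or 22.2, 0.0967 and 4.56 TPM. Plxna4, the partner of Plxna3 in Sema3a signalling, was low in all 3, with 10, 6 and 2 reads (adjusted p = 0.0520 in limma). Plxnb2 had 0.838, 5.23 and 0.0734 TPM.

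Among Eph receptors, Epha7 was the member read at a similar level throughout. Epha7 (chromosome 4, 28813131 to 28967499, forward strand), a receptor of ephrin-As, had 13.1, 22.8 and 15.0 TPM from 331, 577 and 354 reads. The average, 17.0 ± 5.15 TPM (SD, n = 3), lay 3.13 ± 0.24 (SE) over a gene at 1 TPM in log2(TPM + 1) (limma, adjusted p = 0.00951). The other 8 EphA receptors did not pass above 1 TPM, and Epha10, a member without kinase activity, lay below it with 1, 2 and 3 reads (limma, adjusted p = 0.0485).

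Several Eph genes were nearly confined to 1 library. Epha4, which binds ephrins of both classes, had 321, 1 and 1 reads, 99.2% of its summed TPM in replicate 1 (15.6 TPM there). Ephb4, the receptor that marks veins, had 187, 1 and 1 reads, or 15.8, 0.105 and 0.113 TPM. Ephb6, another member without kinase activity, had 2, 2 and 554 reads, or 0.233, 0.233 and 61.4 TPM. Each of these genes was thus high in a single library and at 1 or 2 reads in the others. Epha3 had 9, 517 and 1 reads, or 0.640, 35.7 and 0.0923 TPM, and Epha2 had 1, 80 and 0 reads, so both were high in replicate 2. Epha5 had 2, 402 and 553 reads, or 0.0526, 9.39 and 13.8 TPM, low in replicate 1 alone. None of these 6 passed limma's test (adjusted p from 0.314 to 0.969). The remaining Eph receptors had at most 43 reads in a library: Epha1, Epha6, Epha8, Ephb1, Ephb2 and Ephb3, none past the threshold (limma, adjusted p from 0.0577 to 0.711).

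The ephrin-Bs, transmembrane ligands of EphB receptors, were read mainly in replicate 1. Efnb1 had 36.8, 0.821 and 1.48 TPM from 324, 7 and 12 reads. Efnb2, which marks arteries, had 24.8, 0.0712 and 1.30 TPM from 434, 1 and 21 reads. Neither passed the test (limma, adjusted p = 0.368 and 0.526), and Efnb3 was near 1 TPM, at 1.38, 1.38 and 0.427. The ephrin-As beside Efna5 were scarce: Efna2 had 3, 1 and 14 reads, Efna1 had 0, 4 and 1, Efna4 had 0, 0 and 1, and Efna3 was without a read, with 3 reads worth 0.482, 0.482 and 0.515 TPM.

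Slits, Robos, netrins and their classical receptors were low with few exceptions. Slit1 had 2 reads in each library and Slit2 had 1, 3 and 6, and both lay below 1 TPM (limma, adjusted p = 0.0485 for each; the calls below 1 TPM depend on the setting, as all were lost at a level of 0.5 TPM). Slit3 had 0, 28 and 5 reads. Robo1, the main Slit receptor of axons, had 0, 56 and 87 reads, or 2.91 and 4.82 TPM in replicates 2 and 3. Robo2, with 1, 1 and 10 reads, and Robo3, with 2, 0 and 0, were below 1 TPM (limma, adjusted p = 0.0489 and 0.0485). Robo4, a Robo of endothelium, had 5.78, 28.3 and 1.12 TPM and took most of the Robo total in replicates 1 and 2 (97.1% and 90.6%) but 18.1% in replicate 3. Over the whole table, 3633 of the 10128 genes averaging 5 TPM or more were highest in replicate 2. Of the 12 endothelial markers, all read, 8 were highest there, among them Pecam1 (4.92, 40.2 and 5.12 TPM) and Cldn5 (3.94, 32.4 and 3.03 TPM). Cdh5, Esam and Kdr were highest in replicate 3 (Kdr at 4.95, 10.7 and 45.6 TPM) and Emcn in replicate 1 (237, 135 and 146 TPM). The whole list summed to 334, 470.0 and 327 TPM, and its part in the Robo4 level was not tested.

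The netrin system was led by Ntng1, a GPI-anchored netrin-G that binds a postsynaptic adhesion protein rather than Dcc. It had 1.48, 23.0 and 13.5 TPM from 31, 486 and 266 reads, low in replicate 1 (limma, adjusted p = 0.118). Ntn4, a netrin that binds laminin in basement membranes, had 0.759, 8.49 and 4.16 TPM in the same order of libraries (adjusted p = 0.220 in limma). Ntn1, the classical axon attractant, had 27, 3 and 5 reads, Ntn5 was without a read (3 reads are worth 0.530, 0.529 and 0.566 TPM), and Ntng2 had 1, 1 and 0 and lay below 1 TPM (limma, adjusted p = 0.0485).

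The classical netrin receptors, Dcc and the Unc5 genes, were close to absent at this depth. Dcc had 2, 2 and 1 reads, Unc5c had 1, 2 and 3 and Unc5d had 0, 0 and 2, each below 1 TPM (limma, adjusted p = 0.0485 for each). Unc5b, known from vessel tips, had 1, 6 and 6 reads and Unc5a 0, 0 and 4, which did not pass (limma, adjusted p = 0.0817 and 0.0623). Apart from the 13 genes below 1 TPM and the 5 without a read, 5 more members had a mean under 0.2 TPM and passed neither way: Epha8, Ephb1, Plxna4, Unc5a and Efna4.

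At least 1 TPM with a read in each of the 3 libraries was reached by 16 guidance genes, 24.6% of the 65, against 23.7% of all genes with a read and 33.6% of the protein-coding ones. Beside the 11 above 1 TPM they were Nrp2, Plxnb1, Plxnd1, Ntng1 and Robo4. Of the 28 genes averaging 5 TPM or more, each, in order of mean, overlapped its next lower neighbour in range. In that order Sema3c lay above Efna5 and Sema6d above Nrp2 in all 3 libraries by more than the spread of the difference (0.72 ± 0.21 and 1.14 ± 0.49, SD, in log2(TPM + 1)), but Efna5 and Sema6d differed by 1.09 ± 2.10, and from Nrp2 down to Sema3e neighbours differed by less than their spread. Further down, Ephb4 and Epha4 alone differed by more (0.05 ± 0.03). Both had 1 read in each of replicates 2 and 3, where their values differ by gene length alone, so that order is not resolved.

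Differences between the libraries were large. Among the 37 guidance genes averaging 1 TPM or more, 13 (35.1%) had at least 80% of their summed TPM in a single library, against 38.3% of the 14063 genes of the table at that level and 33.0% of the protein-coding ones, so the share was near the background. Of the 13, 5 were highest in replicate 1 (Epha4, Ephb4, Efnb1, Efnb2 and Plxna2), 6 in replicate 2 (Epha2, Epha3, Plxna1, Plxnb2, Robo4 and Sema4d) and 2 in replicate 3 (Ephb6 and Sema3g). At a mean of 5 TPM or more the median SD over libraries was 1.92 in log2(TPM + 1) for the 28 guidance genes and 1.72 for all 10128 genes.

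**Figure D4:**
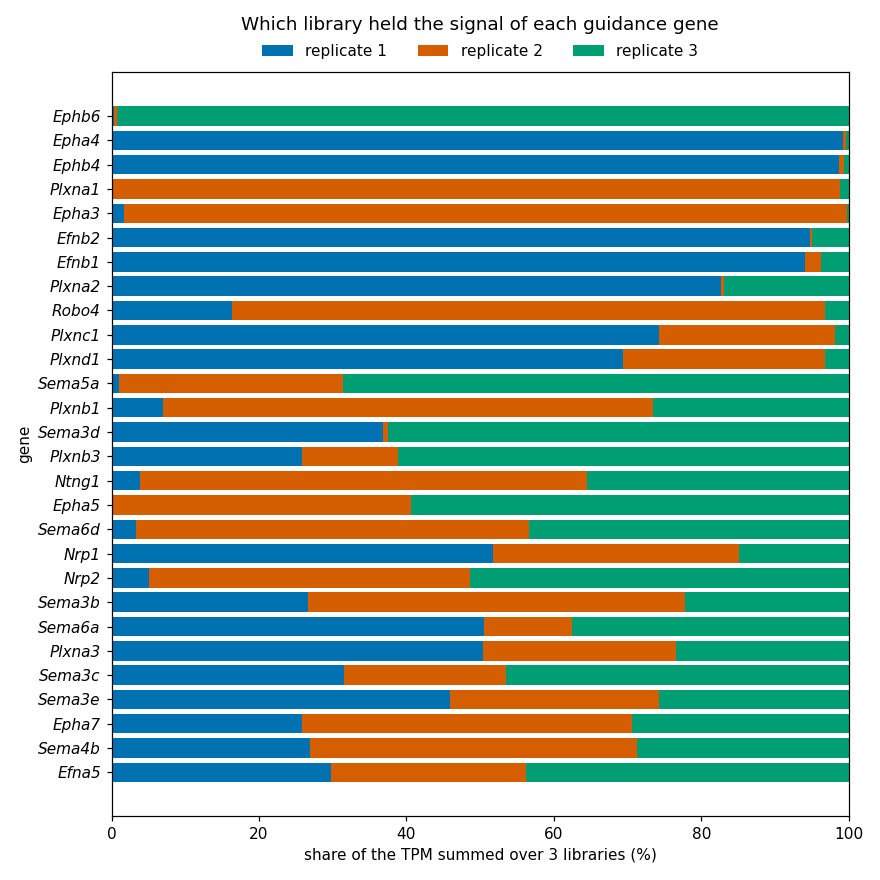
Share of each gene's TPM, summed over the 3 libraries, that came from replicates 1, 2 and 3 (horizontal axis, %), for the 28 guidance genes averaging 5 TPM or more (vertical axis). Ephb6, at the top, had 99.2% in replicate 3, whereas Efna5, at the bottom, had no more than 43.7% in any library.

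Ligands were then set beside a known receptor in the same library, over 21 textbook pairs that were listed with the values already seen. The list left out Sema3a with Nrp1 and Sema3f with Nrp2, whose ligands stayed under 1 TPM in every library. In 5 pairs both genes reached 1 TPM in all 3 libraries: Sema3c with Nrp1, Sema3c with Nrp2, Sema3b with Nrp2, Sema3e with Plxnd1 and Efna5 with Epha7. In the Efna5 and Epha7 pair the ligand was higher in 3 of 3 libraries, at 112, 99.8 and 165 TPM against 13.1, 22.8 and 15.0 TPM. The ligand was also higher in 3 of 3 libraries in both Sema3c pairs, but in 1 of 3 for Sema3b and Nrp2.

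Other pairs met in some libraries. Sema5a and Plxnb3, Sema4d and Plxnb1, Sema6a and Plxna2, Sema3d and Nrp1, and Efna5 and Epha5 both reached 1 TPM in 2 libraries. Efnb2 and Ephb4, the artery and vein pair, did so in replicate 1 only, at 24.8 and 15.8 TPM, and Sema6d and Plxna1 in replicate 2 only, at 152 and 27.5 TPM. Efna5 met Epha4 in replicate 1, Epha3 in replicate 2, and Epha5 in replicates 2 and 3. In 6 pairs, among them Slit2 with Robo1 and Ntn1 with Dcc, both genes reached 1 TPM together in no library. RNA of both partners in a pool does not place them in the same or in neighbouring cells.

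Of 32 other guidance genes listed as neighbours of these families, 10 lay above 1 TPM, 7 below and 12 neither, and 3 (Gdf7, Rtn4r and Islr2) had no read. Of the 29 with a read 34.5% were above and 24.1% below, against 16.3% and 14.1% of all genes and 23.9% and 15.4% of protein-coding genes. The adhesion molecule Chl1, a close homologue of L1 and a partner of neuropilins, had 382, 678 and 376 TPM, a mean of 479 ± 173 (SD, n = 3; limma, adjusted p = 0.00342), above every gene of the 70. Rgmb, a ligand of neogenin, had 298, 122 and 131 TPM, a mean of 184 ± 99.2 (SD, n = 3; limma, adjusted p = 0.00554). Neo1, the neogenin gene itself, had 67.6, 9.38 and 5.33 TPM and passed neither way (limma, adjusted p = 0.0746). Flrt3, a ligand of Unc5 receptors, had 22.5, 195 and 184 TPM, and Rtn4, which encodes Nogo, had 98.2, 75.0 and 74.9 TPM (limma, adjusted p = 0.0398 and 0.00342). Draxin, a ligand of Dcc, and Mag, a myelin inhibitor of axon growth, were among those below, with 0, 1 and 3 and with 0, 1 and 0 reads; this pair was chosen after the values had been seen.

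Of 55 genes of the intracellular relay, all read, 23 (41.8%) lay above 1 TPM, 2 (3.64%) below and 30 neither, against 16.3% and 14.1% of all genes and 23.9% and 15.4% of protein-coding genes. The difference from the guidance genes was not tested. The median of the list was 3.22 in log2(TPM + 1), against 1.21 for the guidance genes and 0.89 for all genes tested, protein-coding or not. Many of these genes serve the cytoskeleton of any cell. Dpysl2, which encodes the collapsin response mediator of Sema3a signalling, had 858, 903 and 558 TPM, a mean of 773 ± 188 (SD, n = 3). Cdc42, a regulator of actin, had 429, 504 and 550 TPM, a mean of 494 ± 61.1. The actin-severing Cfl1 had 424, 352 and 353 TPM, a mean of 376 ± 41.5. Sdcbp, a scaffold that binds ephrin-B tails, had 246, 237 and 478 TPM, a mean of 321 ± 137 (SD, n = 3; limma, adjusted p from 0.00337 to 0.00379 for these 4). The pair below 1 TPM were Tiam1, an activator of Rac, and Limk1, the kinase upstream of cofilin, with 2, 3 and 5 and with 3, 0 and 0 reads.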

How the data were processed

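The authors deposited log2 TPM for each gene in 3 libraries, with the same total TPM in each. Per the labels' protocols the libraries are Smart-Seq2, and the tools named are STAR and featureCounts, with mm10 (GRCm38) as the build, per the submitters' processing notes. Versions, annotation release, strand setting and filters: not given in the sources used here. Where strand is not used, reads of a gene and an antisense partner cannot be told apart. By GENCODE M21, 18 of the 70 genes share exon sequence with another gene. The other gene is antisense except for Ntng2, Nrp1, Plxnc1 and Sema4a, where it lies on the same strand. Of the 11 above 1 TPM only Nrp1 shares exon sequence, over 80 of 9785 bases.

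The low values fit whole reads plus 0.25 for every gene, scaled by gene length. Reads were recovered with M21 exon lengths for 49791 genes (whole within 0.02 of a read in every library) and with a length solved from the values for the other 2759, 11 of the 70 among them; for Robo1 that length was 7563 bases against 16511 in M21. Reads are PCR copies, so levels given for 3 reads cover counting error only. The filter was at least 1 read in at least 1 library. Tests used limma 3.58.1 in R 4.3.3 (prior degrees of freedom 1.19), two-sided, threshold 0.05, pseudocount 1 TPM, and were tested on simulated data; Python 3.11.15, numpy 2.4.6, pandas 2.3.3 and matplotlib 3.10.9 served the rest. No sample was left out. The p-values rest on the spread between these libraries, which limma moderates with the spread over all genes tested. For even genes with few reads the moderating part dominates. Slit1, for example, had an SD of 0.00735 in log2(TPM + 1) over the libraries but an SE of 0.157 in the test.

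All 70 genes are named. Values for each library are given for genes past the test or with at least 10 TPM in any library, for the 4 highest genes above 1 TPM of each pathway list and, as names only, for leading markers. Members, lists and tests were chosen with earlier results of these data known. Alternatives were another pseudocount, filter, level, spread model or scaling, and leaving out each replicate.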

Additional observations from a re-analysis of the deposited data

How the results depend on the processing

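With a level of 5 TPM, 7 guidance genes were above and 30 below, 13985 genes of the table were below, and 11 of the other guidance genes and 9 relay genes were below. Genes below 1 TPM depended most on the settings. At a level of 0.5 TPM and without mitochondrially encoded genes, 0 were below in the guidance set, the whole table, the other guidance genes and the relay. At an unadjusted p under 0.05, 5 and 17 guidance genes were. With low genes left out (mean of at least 0.5 TPM) 0 were below in each of these sets, and 0 guidance genes at an unadjusted p under 0.05. That filter removed all 13 guidance genes below 1 TPM before testing (means of at most 0.152 TPM). Its 0 in the guidance set is therefore no test of those calls. A mean-variance trend gave 20 guidance genes, 9657 of all genes and 7 relay genes below, and testing every gene of the table gave 24, 29850 and 6, with 13 of the other guidance genes. A pseudocount of 0.1 TPM gave 1 relay gene below. The number of guidance genes above 1 TPM stayed between 10 and 12 under these settings, other than the level of 5 TPM.

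Leaving out each replicate in turn gave from 0 to 2 guidance genes above 1 TPM and from 0 to 14 below, from 0 to 2435 and from 0 to 4898 over all genes, from 0 to 7 and from 0 to 6 over the other guidance genes, and from 0 to 18 and from 0 to 3 over the relay; the counts of 0 came without replicate 1 or 2, where 4646 and 4452 genes of the table were above at an unadjusted p under 0.05. With 2 libraries limma has 1 residual degree of freedom per gene. Over the 65 guidance genes with a read, direction turned at a level of 5 TPM for 18: Robo1 (adjusted p = 0.234), Epha2 (0.181), Epha3 (0.746), Epha4 (0.419), Epha5 (0.919), Ephb4 (0.432), Ephb6 (0.850), Efnb1 (0.943), Efnb2 (0.697), Efnb3 (0.0125), Ntn4 (0.578), Plxna1 (0.628), Plxna2 (0.888), Plxna3 (0.943), Plxnb2 (0.146), Sema3g (0.116), Sema4a (0.1400) and Sema4d (0.450). At 0.5 TPM it turned for Slit3 (0.902), Ephb3 (0.647), Efna2 (0.547) and Ntn1 (0.793). With a pseudocount of 0.1 TPM it turned for Epha2 (0.562), Epha4 (0.783), Ephb4 (0.875), Efnb3 (0.948), Plxnb2 (0.892) and Sema3g (0.812), and without mitochondrially encoded genes for Efna2 (0.855).

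It turned without replicate 1 for Epha4, Ephb3, Ephb4, Efna2, Efnb2 and Efnb3, without replicate 2 for Epha2, Epha3, Efna2, Efnb3, Plxna1, Plxnb2, Sema4a and Sema4d, and without replicate 3 for Robo1, Ephb6 and Sema3g. Over the libraries left out the adjusted p ranged from 0.0820 to 0.679 for Epha4, 0.306 to 0.663 for Ephb3, 0.0820 to 0.667 for Ephb4, 0.213 to 0.905 for Efna2, 0.435 to 0.649 for Efnb2, 0.0837 to 0.786 for Efnb3, 0.0711 to 0.766 for Epha2, 0.260 to 0.595 for Epha3, 0.119 to 0.648 for Plxna1, 0.385 to 0.795 for Plxnb2, 0.462 to 0.693 for Sema4a, 0.460 to 0.597 for Sema4d, 0.111 to 0.995 for Robo1, 0.0370 to 0.561 for Ephb6 and 0.0924 to 0.760 for Sema3g. Of these genes, Plxna3 alone passed the test in the report. The cause was not tested. No paired analysis was possible because there is 1 group. Genes with a few reads in a library are limited by depth.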
